A study of Mus musculus with 2 samples.

Results

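Markers of astrocytes made up 29 of the 22145 genes with a symbol on the array, and their signals were compared in cultured mouse hippocampal cells kept in tetrodotoxin (TTX) and in control cells. TTX blocks voltage-gated sodium channels and so stops action potentials. A gene was a member when its symbol was on a fixed list of astrocyte markers and its probes were not array controls, which gave 43 probes. The members were split by what they are best known for into 23 markers of mature astrocytes, 3 of reactive astrocytes (Gfap, Vim and Cd44) and 3 of radial glia (Nes, Fabp7 and Sox9). Vim and Nes are used as markers of more than 1 of these states, and so is Sox9.

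Both cultures came from hippocampi of ICR mouse embryos of embryonic day 16.5 and were harvested at 12 days in vitro. The TTX culture had the blocker for the last 2 days; its dose is stated as 2 µM by the design text but as 2 mM by the source name. The control culture is titled as control, although the treatment text is the same for both samples. Both groups grew in medium with 5.5% serum and both received 5 µM Ara-C, an inhibitor of DNA synthesis, at 2 days after plating to hold back dividing glia. Each culture gave 1 Cy3-labelled RNA sample, read on 1 Agilent array, so that a group was 1 sample. There was no test between groups and no replicate check of any difference.

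Astrocytes are the glial cells that take up glutamate and potassium around synapses, supply neurons with metabolites and line blood vessels with their endfeet. They arise late in development from radial glia, the progenitors that also make neurons, and many genes of radial glia stay active in young astrocytes. After injury or inflammation astrocytes become reactive, with more filament proteins, of which GFAP is the classical marker. Astrocytes in dissociated cultures often keep features of immature or reactive cells.

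Most astrocyte markers had a moderately higher signal in the TTX culture, and none differed by 2-fold. As to the label, Gfap, Aqp4, Aldh1l1 and Aldoc were all detected, and so were all 20 markers of neurons. Of the 29 members 26 were measured, that is, well above background on both arrays, and 22 of these were above 0 on the log2 difference of TTX minus control (signals quantile normalized between the arrays, brightest measured probe of each gene). Over all 14015 measured genes 51.1% were above 0. The median of the measured members was 0.40, a fold of 1.32, with a range from -0.21 to 0.83, beside a median of 0.01 for all measured genes. No member was at least 2-fold higher, where 2.09% of all genes were, and none was at least 2-fold lower, where 3.4% were. At 1.5-fold, 4 members were higher (Htra1, Gfap, Vim and F3) and none lower, against 7.66% and 8.64% of all genes. That count was 2 with spike-in scaling, where Gfap (0.58) and Vim (0.45) were under 1.5-fold, and 5 with 75th percentile scaling. Under the 5 scalings run, 20 to 22 of the 26 were above 0, and Slco1c1 and Fabp7 were the members that changed sign. In a bulk sample more cells of a type and more RNA per cell cannot be told apart.

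**Figure D1:**
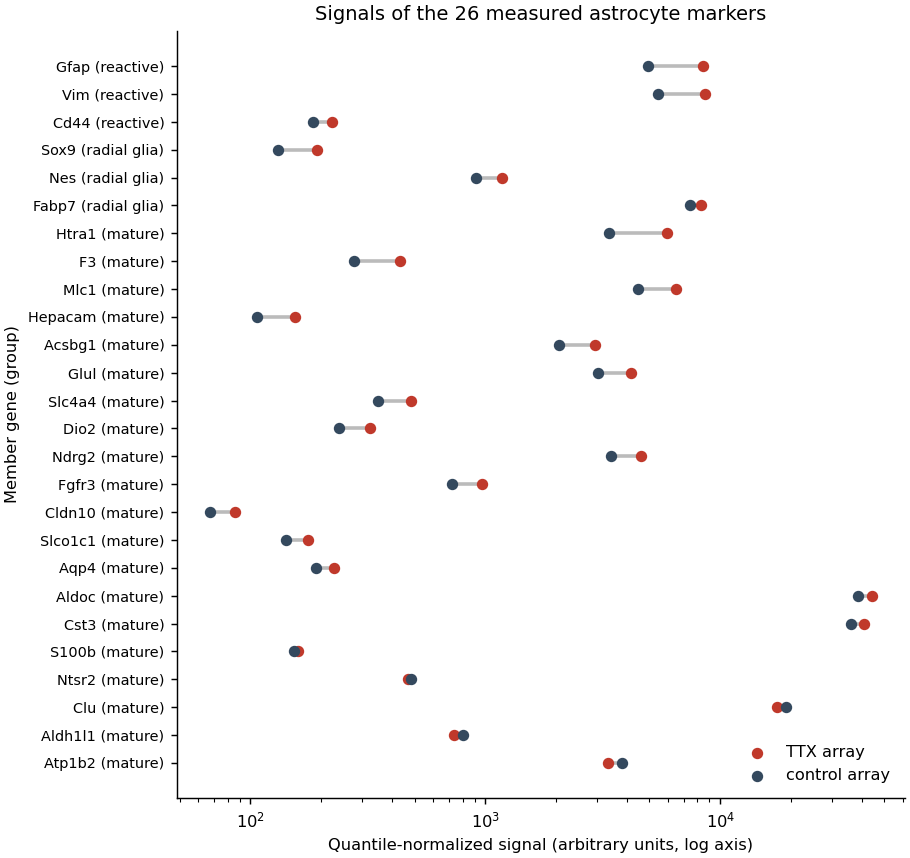
Quantile-normalized signal (horizontal log axis, arbitrary units) of the 26 measured members on the TTX array (red) and the control array (dark), 1 row per gene by marker group. The red point lies to the right in 22 rows, and to the left for Ntsr2, Clu, Aldh1l1 and Atp1b2, while Slco1c1 and Fabp7 change side with the scaling.

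The precision within an array was read in 2 ways. Among 261 measured probes printed as 10 spots, the pooled SD of a single spot's log2 difference was 0.15, falling to 0.06 in the brightest 20% of signals and reaching 0.31 in the dimmest 20%. Feature Extraction, the scanner's software, gives a wider error, with a median of 0.20 for the members' differences. By that error 13 of the 26 members were higher in TTX by over 2 errors and none was lower, against 12.9% and 13.5% of all genes. Neither error holds any difference between cultures, RNA preparations or labelling reactions. On 25 of the 26 members the value rested on a single spot of the brightest probe.

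**Figure D2:**
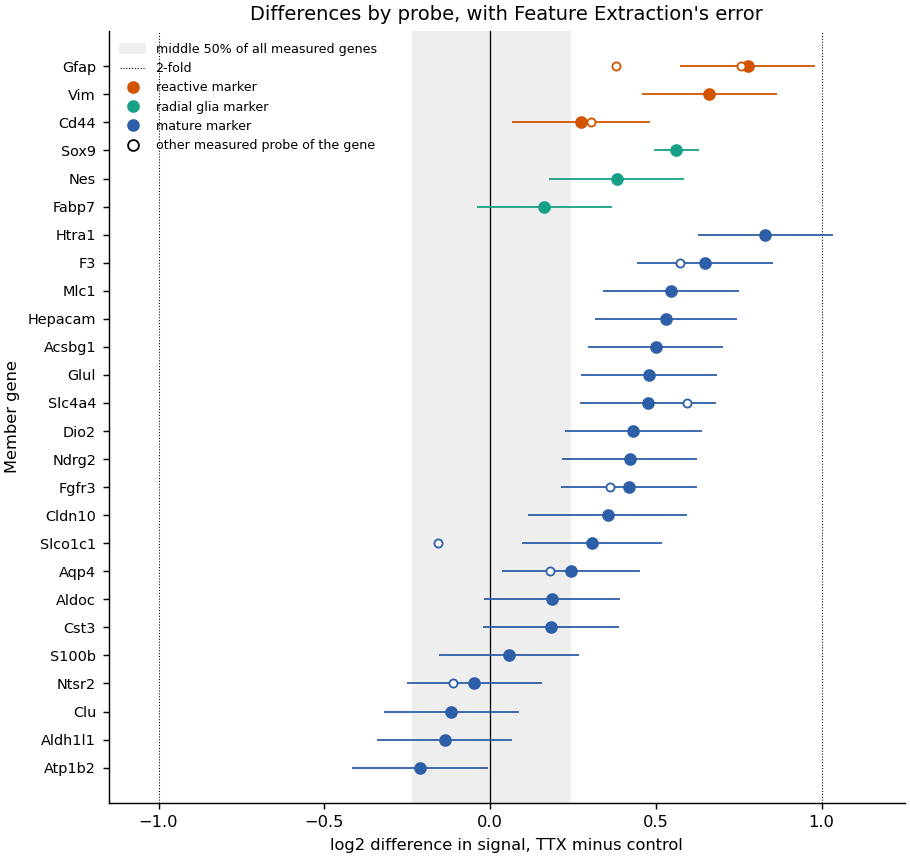
Log2 difference in signal (horizontal axis, TTX minus control) of each measured member. Filled points are the brightest probe with bars of 1 Feature Extraction error, open points are other measured probes of the gene, and the grey band is the middle 50% of all measured genes. The highest member is Htra1 at 0.83 and the lowest is Atp1b2 at -0.21, both inside the dotted 2-fold lines.

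Of the 3 intermediate filament genes, Gfap and Vim were among the members with the largest differences, while Nes was close to the member median. Gfap, the filament protein of astrocytes, had a signal of 8423 in TTX, against 4917 in control, at its brightest probe (log2 difference 0.78, Feature Extraction error 0.20). Vim, which encodes vimentin, a filament of immature and reactive astrocytes and of mesenchymal cells, had 8597 in TTX and 5436 in control (0.66, error 0.20). Nes, which encodes nestin, the filament of neural progenitors, had 1184 in TTX and 909 in control (0.38, error 0.20). All of these filament genes were higher in TTX, with Nes under 2 errors from 0. The median of the 3 was 0.66.

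Gfap was measured by 3 probes that did not all give the same size of difference, so their first 30 of 60 bases are shown, in lower case with nothing marked. They are annotated on mm9, all on the minus strand, and are given in the order in which the gene is read. No mm9 annotation was used here, so exon and UTR positions are not given.
Gfap probe at chr11:102752726-102752785 (transcript variant 1): caaaaggctcacaatacaagttgtcccaat
Gfap probe at chr11:102751813-102751872 (transcript variant 1): ggttatattaacagagctagcctatgctaa
Gfap probe at chr11:102748864-102748923 (transcript variant 2): tttgaggaactgaaacgtgttgtgttcaag

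The first of these read 463 in TTX and 355 in control, a log2 difference of 0.38. The next read 7763 in TTX and 4593 in control, a difference of 0.76. The last, which gave the gene's value, was at 0.78. All 3 Gfap probes were higher in TTX, while the one placed first had the smallest difference and by the array's annotation shares its transcript variant with the next. Whether the probes reflect different transcripts was not tested.

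The third reactive marker, Cd44, is a receptor for hyaluronan that is raised in reactive astrocytes. It had 222 in TTX and 184 in control (0.27, error 0.21), with 0.30 at another probe, and its other probes were not well above background. The reactive members thus had a median of 0.66, from 0.27 to 0.78. With 3 genes in the group, that median is the value of 1 gene, Vim.

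A panel of 32 other genes known from reactive or inflammatory astrocytes did not share this size. Of the 24 measured, 15 were above 0, and the median was 0.13. None was higher by 2-fold and 1 was lower, against 2.09% and 3.4% of all genes. The lower one was Ptx3, a secreted pentraxin of inflammation, with 79 in TTX and 162 in control (-1.04). The protease inhibitor Timp1 was at -0.64, the class I antigen H2-D1 at -0.61 and the immunoproteasome subunit Psmb8 at -0.60, the last from signals of only 24 in TTX and 36 in control. By over 2 Feature Extraction errors 5 genes of the panel were lower and none higher, against 13.5% and 12.9% of all genes. The difference between this panel and the 3 reactive members was not tested.

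The radial glia members were higher by amounts between 0.16 and 0.56, with a median of 0.38. Sox9, a transcription factor needed for the switch to glial fates, was the only measured member with more than 1 spot for its value, 10 on each array, of which 9 were not marked as outliers. Those spots ran from 164 to 272 in TTX, median 179, and from 122 to 140 in control, median 131. The spots of the 2 arrays did not overlap, and the spot-level differences ran from 0.33 to 1.103. Averaged, Sox9 was at 0.56 (Feature Extraction error 0.07 over its spots). Spots of 1 array share the same RNA and are no replicates of the culture. Fabp7, the brain lipid-binding protein of radial glia, had 8293 in TTX and 7402 in control, a difference of 0.16 that was -0.05 with scaling on the spike-in controls.

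Of 14 further genes known from radial glia 12 were measured and 10 were above 0, with a median of 0.26. None passed 2-fold. The highest were Hes6, a HES family transcription factor, at 0.79, and Prom1, which encodes the membrane protein prominin, at 0.74. Hopx was at 0.46 and the receptor phosphatase gene Ptprz1 at 0.39. Reactive, radial glia and mature members were thus on the same side of 0 at their medians, and their ranges overlapped.

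The mature markers had a median of 0.39 over 20 measured genes, 16 of them above 0. Those for membrane proteins and transport differed by moderate amounts. Mlc1 and Hepacam encode partner proteins at astrocyte junctions, and defects in either cause a leukoencephalopathy in humans. Mlc1 had 6504 in TTX and 4457 in control (0.55), and Hepacam had 154.4 in TTX and 106.9 in control (0.53, error 0.21). Both partners were higher in TTX, and their values with spike-in scaling were 0.36 for Mlc1 and 0.54 for Hepacam.

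Slc4a4, a sodium bicarbonate cotransporter, had 484 in TTX and 348 in control (0.48), with 0.59 at an overlapping probe. Aqp4, the water channel of astrocyte endfeet, had 226 in TTX and 191 in control (0.24), and 0.18 at its other probe. Cldn10, a claudin of cell junctions, was dim, with 86 in TTX and 67 in control (0.35, error 0.24). Atp1b2, a subunit of the sodium pump that astrocytes carry, was the lowest of all measured members, with 3314 in TTX and 3836 in control (-0.21, error 0.20). Among the membrane and transport genes it was the only measured one below 0.

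The gap junction genes could not be compared in the same way. Gja1 encodes a main connexin of astrocytes, and its only probe was dim on both arrays. It was well above background at 6 of 10 spots in TTX and 4 of 10 in control, so it counted as above background on the TTX array alone. Its signals were 23 in TTX and 15 in control. Set against the lowest signal above background on the control array, the TTX signal was 1.43-fold higher. That figure is no lower limit of the fold. Spots without an outlier mark ran from 20 to 27 in TTX and from 8.64 to 22.8 in control. The spots overlapped. The single probe of the other connexin, Gjb6, was not well above background on either array, and neither was that of Gpr37l1, a receptor gene of astrocytes.

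Among the metabolic enzymes Acsbg1 and Glul were higher and Aldh1l1 was not. Glul, glutamine synthetase, which turns the glutamate taken up by astrocytes into glutamine, had 4189 in TTX and 3004 in control (0.48). Acsbg1, a fatty acyl-CoA synthetase, had 2918 in TTX and 2064 in control (0.50). A dim second probe of Acsbg1, annotated to another transcript, was above background in control alone (11 in TTX and 23 in control). Set against the lowest signal above background on the TTX array, its control signal was 1.18-fold higher. This probe had 1 spot, and its difference of -1.03 was under 2 of its Feature Extraction errors of 0.61. Aldoc, the brain aldolase of glycolysis, was bright and close on the 2 arrays, with 44061 in TTX and 38706 in control (0.19). Aldh1l1, a folate enzyme widely used to mark all astrocytes, had 733 in TTX and 806 in control (-0.14). The last 2 differences were smaller than 1 Feature Extraction error of 0.20.

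Slco1c1 and Dio2 serve thyroid hormone, the first as a transporter of thyroxine and the second as the deiodinase that activates it. Dio2 had 322 in TTX and 239 in control (0.43, error 0.21). The 2 probes of Slco1c1 disagreed in sign, so the start of each is shown in the same form.
Slco1c1 probe at chr6:141517875-141517934 (mm9, plus strand): cctaagcatggctgtactttttgttttaaa
Slco1c1 probe at chr6:141518164-141518223 (mm9, plus strand): gcctgctttgcttttgactctaagcataac

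The first read 176 in TTX and 142 in control, a difference of 0.31. The second read 149 in TTX and 166 in control, a difference of -0.16. Both were dim, and they were annotated to the same transcript. As their mean signals were nearly equal, which one was the brighter depended on the scaling, and the value of the gene was -0.10 with 75th percentile scaling and -0.16 with spike-in scaling. No direction is given for Slco1c1.

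Secreted and surface-bound proteins held both the highest member and one of the lowest. Htra1, a secreted serine protease, had 5952 in TTX and 3348 in control, a log2 difference of 0.83 (error 0.20) and a fold of 1.78. F3, tissue factor, which starts blood coagulation, had 433 in TTX and 276 in control (0.65), with 0.57 at its other probe. Cst3, the protease inhibitor cystatin C, had 40910 in TTX and 36011 in control (0.18). Clu, the secreted chaperone clusterin, had 17514 in TTX and 18999 in control (-0.12). Both Clu and Cst3 are also expressed outside astrocytes, and both differed by less than 1 error.

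Of the receptors, Fgfr3, a receptor for fibroblast growth factors, had 969 in TTX and 724 in control (0.42), with 0.36 at another measured probe. Ntsr2, a neurotensin receptor, was close to level, with 469 in TTX and 485 in control (-0.05) and -0.11 at its other probe. Ndrg2, a cytoplasmic protein of mature astrocytes, had 4601 in TTX and 3437 in control (0.42). S100b, a calcium-binding protein, had 160 in TTX and 154 in control (0.06). Between probes of 1 member the differences lay within 0.12 of each other for 6 of the 8 members with several measured probes, and Gfap and Slco1c1 were the exceptions.

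**Figure D3:**
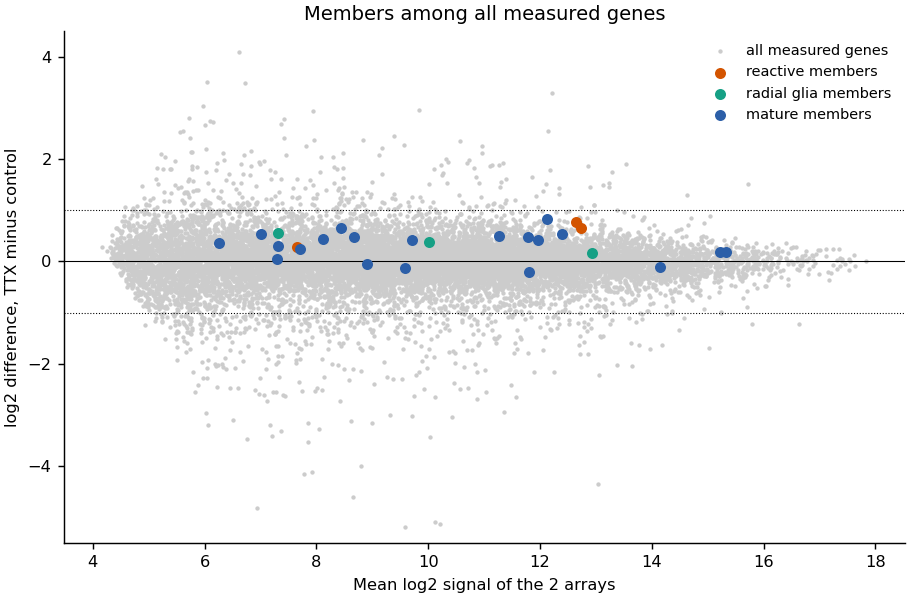
Log2 difference (vertical axis, TTX minus control) against mean log2 signal of the 2 arrays (horizontal axis) for 14015 measured genes (grey) and the measured members (coloured by group). The members lie between -0.21 and 0.83 over a wide range of signals, while other genes reach well beyond the dotted 2-fold lines.

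The members' differences were set beside signal level and spot position. No measured member was in the dimmest 20% of signals. In the 4 brighter bins of that size, from dim to bright, the member medians were 0.35, 0.35, 0.40 and 0.42, beside medians of all genes of 0.01, 0.02, 0.02 and 0.00. Members were placed by the mean row of their spots, as those of Sox9 ran from row 7 to row 364. The 13 members placed in rows 1 to 192 of the array had a median of 0.42. The 13 in rows 193 to 384 had one of 0.27, with 11 above 0 in each set. Medians of all genes in those rows were 0.02 and 0.00. Centring each probe on its block of 48 rows and its bin of signal gave a member median of 0.38.

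Genes of glutamate and potassium uptake are known functions of the same cells. Of 7 on that list 6 were measured and 5 were above 0, with a median of 0.39. Slc1a3, the glutamate transporter of radial glia and young astrocytes, had 1314 in TTX and 999 in control (0.40). Kcnj10, the inward rectifier potassium channel of astrocytes, had 7210 in TTX and 5496 in control (0.39), and the glutamine transporter Slc38a3 was at 0.46. Slc1a2, the main glutamate transporter of mature astrocytes, went the other way, with 867 in TTX and 1794 in control (-1.05). Its dimmer probes were at -1.11 and -1.29, so all 3 were at least 2-fold lower in TTX.

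Among 44 further astrocyte genes 36 were measured, 27 were above 0 and the median was 0.26. At 2-fold, 1 was higher and 2 were lower, against 2.09% and 3.4% of all genes. By over 2 Feature Extraction errors 11 were higher and 3 lower, against 12.9% and 13.5%. The higher one was Pdk4, a kinase that restrains pyruvate dehydrogenase, from signals of 35 in TTX and 17 in control (1.06, error 0.39). Egfr, the epidermal growth factor receptor, was lower at -1.37 and Ttyh1, a membrane protein of astrocytes and radial glia, at -1.29. Ttyh1 had 3239 in TTX and 7940 in control, and its 3 probes lay between -1.51 and -1.29. Lcat, which esterifies cholesterol, was at 0.92 from a dim probe.

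Factors that drive astrocyte formation were mostly higher. Of 14 such genes 12 were measured, 11 were above 0 and the median was 0.30, with none past 2-fold. By over 2 Feature Extraction errors 3 were higher and none lower, against 12.9% and 13.5% of all genes. Stat3, the transcription factor that acts on Gfap downstream of the LIF and CNTF receptors, had 9009 in TTX and 5005 in control (0.85), and 0.78 at its other probe. Lifr, the LIF receptor, gave 0.67 with its brightest probe and 0.06 with another. Notch2 was at 0.55. Nfib, a nuclear factor I gene, had 5 measured probes, the brightest of which gave 0.40 and the highest 0.91.

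Of the filament genes, Nes also was higher in TTX and had a RefSeq window but is not shown. The promoters of Gfap and Vim, which had the larger differences, are shown. They are the 250 bases before the RefSeq start on GRCm38.p6, 5′ to 3′ on the gene's strand, with matches to the motifs searched in capitals.
Gfap at chr11:102897201-102897450, minus strand: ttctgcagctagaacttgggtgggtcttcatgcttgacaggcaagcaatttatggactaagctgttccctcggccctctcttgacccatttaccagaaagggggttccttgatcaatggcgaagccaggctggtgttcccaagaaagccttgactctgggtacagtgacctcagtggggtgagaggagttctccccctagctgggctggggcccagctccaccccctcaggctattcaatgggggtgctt
Vim at chr2:13574061-13574310, plus strand: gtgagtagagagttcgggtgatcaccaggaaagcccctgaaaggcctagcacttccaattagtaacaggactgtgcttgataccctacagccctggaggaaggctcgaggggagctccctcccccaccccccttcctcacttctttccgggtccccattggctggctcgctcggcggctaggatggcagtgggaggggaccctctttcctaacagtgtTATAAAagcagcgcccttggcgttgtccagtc

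The letters searched on both strands were TTCNNNGAA (STAT), TGACGTCA (the cAMP response element), TGANTCA (AP-1) and TATAAA (the TATA box). The capitals in the Vim window mark TATAAA, which begins 32 bases before the start, and the Gfap window held none of these strings. Only these 250 bases were searched, so a site further away would not be seen. Windows were found for 25 of the 29 members, and Aqp4, Atp1b2, Clu and Sox9 had none. Those 25 genes had 31 windows, as some have several starts. Of the 31 windows, 3 held the STAT string (in Acsbg1, Aldoc and Ntsr2), where 7.02% of all windows did. The TATA string was in 3 windows (of Dio2, Ndrg2 and Vim; 12.4% of all windows), the AP-1 string in 2 (of F3 and Gja1; 6.75%) and the cAMP response element in 1 (of Dio2; 1.55%).

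Markers of other cells moved beside the members. Of 20 neuron markers all were measured, 8 were above 0 and the median was -0.21, with summed signals of 351144 in TTX and 383501 in control. The neurofilament genes Nefm (-1.20) and Nefh (-0.98) and the neuronal splicing factor Rbfox3 (-0.81) were lower, while Dcx, of young neurons, was higher (1.20). The measured members summed to 161087 in TTX and 136380 in control. Most of both sums came from Aldoc (44061 in TTX, 38706 in control), Cst3 (40910 in TTX, 36011 in control) and Clu (17514 in TTX, 18999 in control). Neuron and member medians kept their signs under the 5 scalings run.

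Microglia markers had a median of 0.30 with 11 of 13 measured above 0 and summed signals of 23240 in TTX and 20853 in control, and Cx3cr1, P2ry12 and Tmem119 were not measured. Fibroblast and mural markers had 0.28, with 11 of 11 above 0 and sums of 6536 in TTX and 4886 in control, and Fbln1, a fibulin of the matrix, reached 2.38. Ependymal and choroid markers had 0.34, with 5 of 5 above 0 and sums of 1086 in TTX and 679 in control. Foxj1, the factor of motile cilia, was at 0.91, and Ttr, the thyroxine carrier of choroid plexus, at 1.01 from a dim probe. Oligodendrocyte lineage markers had 0.20, with 5 of 6 above 0 and sums of 2516 in TTX and 2120 in control, led by Olig1 (0.78), while Olig2, Sox10 and Pdgfra were not measured. Endothelial markers had -0.13, with 1 of 5 above 0 and sums of 2265 in TTX and 2656 in control. Most of those sums came from Kdr (2071 in TTX, 2445 in control), whose 2 probes differed in sign (-0.24 and 0.24). The probes of Flt1 did so too (-0.11 and 0.22), and Cdh5, Tek, Cldn5, Tie1 and Emcn were not measured. The part of these cells in the members' differences was not tested.

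Proliferation genes had a median of 0.07, with 6 of 10 measured above 0 and sums of 3839 in TTX and 3408 in control, and Top2a, Ccnb1, Cdk1, Bub1 and Aurkb were not measured. Mki67 was the highest at 3.48, from signals of 352 in TTX and 32 in control. Mcm3 was at 0.90, with 0.50 at its other probe, and Tyms (0.74) and Ccna2 (0.66) were dim. These 4 were at least 1.5-fold higher and none was lower by that much, against 7.66% and 8.64% of all genes. That count was 1 with normexp background correction. Housekeeping genes had a median of -0.06, with 4 of 12 above 0. They ran from Hprt at -0.95 (6659 in TTX, 12881 in control) to B2m at 0.50, so single reference genes were not all level.

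**Figure D4:**
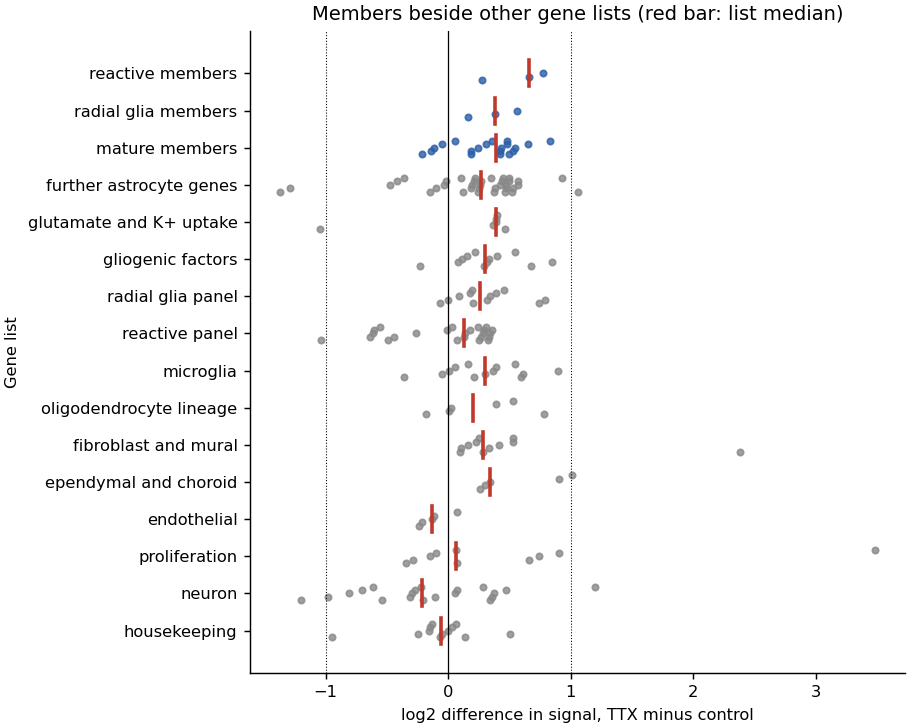
Log2 difference (horizontal axis, TTX minus control) of each measured gene in 16 lists, with list medians as red bars and the members in blue. Reactive members have a median of 0.66 and mature members one of 0.39, while the neuron list is at -0.21.

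The medians of the member groups were compared under each way of processing. The member median ran from 0.27 with spike-in scaling to 0.42 with no filter on dim probes, and the distance from the median of all genes ran from 0.35 to 0.41. The reactive median was above the mature and radial glia medians in each of the 10, although it rests on 3 genes. These are not 10 separate checks of that order. Spike-in scaling, 75th percentile scaling and no normalization differ only by a shift common to all genes, so they must give the same order. Both filter settings left the reactive and radial glia medians as reported.

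**Figure D5:**
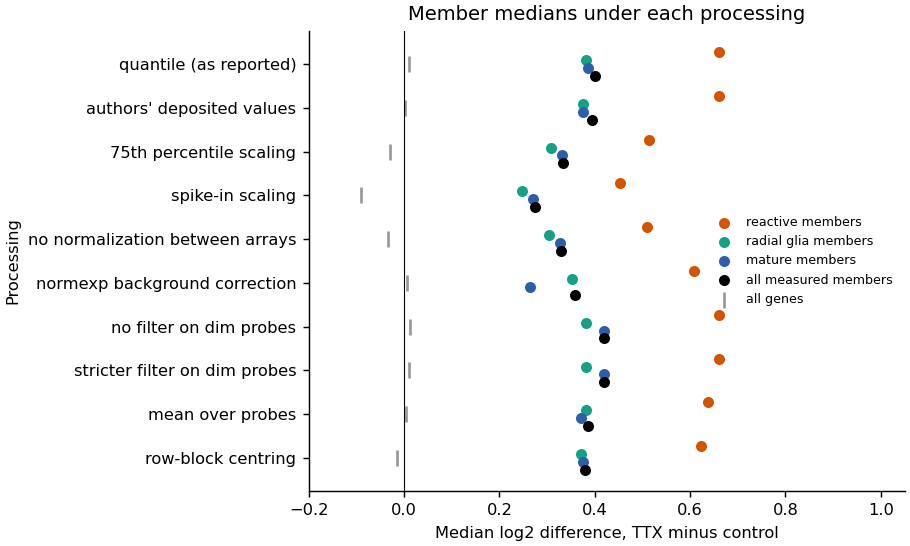
Median log2 difference (horizontal axis, TTX minus control) of the member groups and of all genes under 10 ways of processing, 1 row each, with points of a row set apart vertically. Member medians lie above the medians of all genes in every row, with all measured members between 0.27 and 0.42.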

How the data were processed

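Total RNA of 1 TTX culture and 1 control culture was measured on 1-colour Agilent arrays, per the labels. The deposited scanner files hold spot intensity, background-subtracted by Feature Extraction (version 10.7.1.1 per the file headers, 9.5.1.1 per the submitters' processing notes). The authors' deposited value table holds linear intensity. Quantile normalization, named in the design text, was applied here to processed signals of unmarked, non-control spots, followed by log2 and averaging per probe. Probes with a share of 0.5 or more of spots well above background on each array counted as measured, and the brightest such probe stood for its gene. Spots well above background were 52.2% in TTX and 54.2% in control, and none was saturated. Of 55681 probes 30847 got a symbol through RefSeq tables of GRCm38.p6. For a probe seen on 1 array only, the fold was taken against the other array. There the larger of its dim signal and the lowest signal above background was used. Such a fold takes no account of the error of the spots. Normexp background correction (offset 50) used limma 3.58.1 in R 4.3.3, and other steps used Python 3.11.15. The steps were tested on simulated data. Named were all members, at most 4 genes of each other list by size of difference, Slc1a2, Slc1a3 and list genes that were not measured. The members and lists were chosen with earlier results of these data known.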

Additional observations from a re-analysis of the deposited data

Results flagged for a closer look

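The Gja1 probe lay outside the measured members. On the TTX array 60% of its 10 spots passed Feature Extraction's background test, beside 40% on the control array. It was singled out because a signal appeared in a probe that the comparison did not use. The fold of 1.43 rests on signals close to the lowest ones above background and is no lower limit.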

How the results depend on the processing

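The number of arrays, 1 in each group, is the main limit, and dim members such as Cldn10, Hepacam and Slco1c1 are limited by signal over background. Across 9 alternatives, of which the stricter filter on dim probes left out Cldn10, the measured members gave 233 values. Of these 48 moved by more than the gene's own spot SD, taken for its signal and number of spots, and 185 did not. The 185 include values that could not move. Both filter settings keep the brightest probe of any measured member they retain. Averaging over probes cannot change a member with 1 measured probe. Among the other settings the number moved ran from 0 of 26 with the authors' deposited values to 16 of 26 with spike-in scaling. The members that changed sign were 2, Slco1c1 and Fabp7. Slco1c1 did so with normexp (-0.15), no normalization (-0.11), spike-in scaling (-0.16) and 75th percentile scaling (-0.10), since its other probe became the brighter, and Fabp7 with spike-in scaling (-0.05). The median of the reactive members was 0.51 with no normalization, 0.45 with spike-in scaling and 0.51 with 75th percentile scaling, and the cause was not tested. Of all members 4 were higher at 1.5-fold, where 0 passed at 2-fold, and none passed 3-fold. The count at 1.5-fold was 2 with spike-in scaling, 3 with normexp, and 5 with 75th percentile scaling or no normalization. The members' median, the mature and radial glia medians and the count lower moved by less than the pooled spot SD of 0.15 or not at all. That SD is wider than the 0.06 of the brightest members. The radial glia median, for 1, was 0.38 as reported and 0.25 with spike-in scaling. With Vim, Nes and Sox9 counted in each group they mark, the medians were 0.52 for reactive, 0.47 for radial glia and 0.42 for mature members. No paired analysis was possible because each group had 1 array.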
